A study of Homo sapiens with 38 samples.

Results

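The DNA regions occupied by endogenous Sp1 in cells that were induced to make a Sp1 IDR–CTCF DBD chimera were set against those in the parental cells. Members were the peaks of the anti-V5 CUT&RUN lists of the chimera line and of the parental line, with a rabbit and a mouse V5 antibody kept apart. CUT&RUN releases the DNA beside an antibody-bound protein with a tethered nuclease, and each deposited list holds the peaks that passed an irreproducible discovery rate limit over 2 biological replicates. Peaks of the 4 lists that shared at least 1 bp were joined into 2809 regions, of 7579 regions over all 19 lists of the series. All samples were U-2 OS cells, a human osteosarcoma line, in which the endogenous SP1 gene carried a V5-Halo tag. The parental line had no transgene. The chimera line carried in addition, at the AAVS1 safe harbor site, a doxycycline-inducible FLAG-tagged transgene that joins the Sp1 activation domain, an intrinsically disordered region (IDR), to the DNA binding domain (DBD) of CTCF. Cells of both lines received doxycycline at 1 µg/ml for 36 h, were sorted for fluorescence, and were grown for 36 h more with doxycycline. Lines with a Sp1 IDR-LacI or a full-length Sp1 (Sp1 WT) transgene were treated alike and had anti-V5 lists too. Per the study's methods the knock-in was homozygous and came from 1 clone, and cells with the transgene were selected with puromycin. Whether the transgene lines were cloned again is not given in the sources used here.

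Sp1 is a zinc finger activator that binds GC boxes at the promoters of many housekeeping genes and recruits the general transcription machinery through its disordered glutamine-rich domains. CTCF is an architectural protein whose zinc fingers read a long motif at insulators and loop anchors, where cohesin is held. The chimera therefore carries Sp1's disordered region on a DBD with another sequence preference, and the comparison asks whether the binding sites of the cell's own Sp1 changed while the chimera was present.

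The sequences under the summits of 10 regions described below are shown, since they carry what was kept, lost, new or changed. They are hg38, plus strand, within 100 bp of the summit, and without annotated UTR bases. Capitals mark GC boxes (GGGCGG on either strand), except at TBPL2, where they mark TGANTCA, a word bound by AP-1 factors. PLAUR (chr19:43668467-43668667) and SP1 (chr12:53379880-53380080) were in all 4 lists.
PLAUR: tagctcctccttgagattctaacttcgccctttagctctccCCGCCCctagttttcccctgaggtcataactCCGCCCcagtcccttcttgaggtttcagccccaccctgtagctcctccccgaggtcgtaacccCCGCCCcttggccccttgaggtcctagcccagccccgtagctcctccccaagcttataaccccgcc
SP1: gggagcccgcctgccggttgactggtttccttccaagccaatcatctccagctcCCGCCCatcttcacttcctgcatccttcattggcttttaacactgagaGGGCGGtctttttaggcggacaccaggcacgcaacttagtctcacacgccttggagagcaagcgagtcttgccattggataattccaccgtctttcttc
RNFT2 (chr12:116738071-116738262), CDC23 (chr5:138213382-138213582) and an intron of TBPL2 (chr14:55448196-55448396) were in both parental lists and in neither list of the chimera line.
RNFT2: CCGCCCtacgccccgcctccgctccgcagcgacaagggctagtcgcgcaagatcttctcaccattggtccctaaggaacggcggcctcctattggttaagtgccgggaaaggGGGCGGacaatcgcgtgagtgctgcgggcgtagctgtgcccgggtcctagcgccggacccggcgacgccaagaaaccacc
CDC23: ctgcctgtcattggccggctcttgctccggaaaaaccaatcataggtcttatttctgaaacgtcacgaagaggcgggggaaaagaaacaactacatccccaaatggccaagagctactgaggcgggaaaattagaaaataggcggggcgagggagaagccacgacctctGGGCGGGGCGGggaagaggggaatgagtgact
TBPL2: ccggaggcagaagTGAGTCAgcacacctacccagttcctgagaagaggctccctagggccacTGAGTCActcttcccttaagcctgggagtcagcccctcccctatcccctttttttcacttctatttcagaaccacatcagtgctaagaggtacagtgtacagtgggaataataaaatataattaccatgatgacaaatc
ATP8B3 (chr19:1812464-1812664), an intron of RYR1 (chr19:38507111-38507311) and MIRLET7A1HG (chr9:94165986-94166186) were in both lists of the chimera line and in neither parental list.
ATP8B3: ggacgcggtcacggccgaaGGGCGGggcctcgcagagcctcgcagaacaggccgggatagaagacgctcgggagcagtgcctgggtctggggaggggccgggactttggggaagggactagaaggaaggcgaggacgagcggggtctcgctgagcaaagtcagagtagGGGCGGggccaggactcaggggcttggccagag
RYR1: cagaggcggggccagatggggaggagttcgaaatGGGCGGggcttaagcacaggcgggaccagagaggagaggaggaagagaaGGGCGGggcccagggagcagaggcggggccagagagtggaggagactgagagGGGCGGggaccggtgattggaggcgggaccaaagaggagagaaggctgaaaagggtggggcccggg
MIRLET7A1HG: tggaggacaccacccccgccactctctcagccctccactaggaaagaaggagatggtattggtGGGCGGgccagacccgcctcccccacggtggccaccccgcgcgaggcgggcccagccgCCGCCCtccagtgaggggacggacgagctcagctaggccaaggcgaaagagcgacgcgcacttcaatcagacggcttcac
PTPRU (chr1:29283226-29283426) and CHEK2 (chr22:28742423-28742613) were in all 4 lists at a different strength. The window at PTPRU held no GC box, and those at PLAUR and RYR1 held 3 each.
PTPRU: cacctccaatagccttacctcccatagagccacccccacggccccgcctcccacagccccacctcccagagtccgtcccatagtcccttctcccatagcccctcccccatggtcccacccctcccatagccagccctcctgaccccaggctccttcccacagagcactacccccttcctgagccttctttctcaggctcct
CHEK2: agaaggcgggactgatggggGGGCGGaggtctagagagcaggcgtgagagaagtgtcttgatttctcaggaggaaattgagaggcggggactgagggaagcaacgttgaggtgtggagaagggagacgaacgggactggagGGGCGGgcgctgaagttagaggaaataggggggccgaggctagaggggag

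Most parental Sp1 peaks were found again in the chimera line. With the rabbit antibody 1546 of 1987 parental peaks (77.8%, 95% Wilson interval 75.9 to 79.6) overlapped a peak of the chimera line, and 441 did not (22.2%). With the mouse antibody 1218 of 1830 (66.6%, 64.4 to 68.7) were kept and 612 were lost (33.4%). Of the chimera line's own peaks, 629 of 2172 were new with the rabbit antibody (29.0%) and 192 of 1413 with the mouse antibody (13.6%). Kept, lost and new refer to overlap between lists that each join both replicates, so intervals cover counting error over peaks, and no test over cultures was possible. The antibodies' order depended on list length. With equal numbers of top peaks from both lines, 75.2% were kept with the rabbit and 78.4% with the mouse antibody. In the lines with the other transgenes, which were set against the same parental lists, 78.9% and 76.0% of parental peaks were kept in the Sp1 IDR-LacI line (rabbit and mouse), and 68.4% and 63.5% in the Sp1 WT line. The chimera line's values lay between those of the other 2 lines with both antibodies. These shares were not matched for list length. The chimera, Sp1 IDR-LacI and Sp1 WT lines had 2172, 2126 and 1790 peaks (rabbit) and 1413, 1739 and 1332 (mouse).

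Strong peaks were kept more often than weak ones. Parental peaks were ranked by the −log10 p-value of the merged peak. In the strongest of 4 equal rank groups 94.4% (92.0 to 96.1) were kept with the rabbit antibody and 97.6% (95.7 to 98.7) with the mouse antibody. In the weakest group the shares were 51.5% (47.1 to 55.9) and 27.3% (23.4 to 31.5). New peaks had the opposite slope. In the 4 rank groups of the chimera line's rabbit list they made up 7.0%, 13.1%, 33.0% and 62.8% from strongest to weakest, and in those of its mouse list 5.38%, 6.80%, 12.5% and 29.7%. In the weakest rank group of parental peaks the Sp1 IDR-LacI line kept 52.9% (rabbit) and 43.7% (mouse), and the Sp1 WT line 31.8% and 19.7%.

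**Figure D1:**
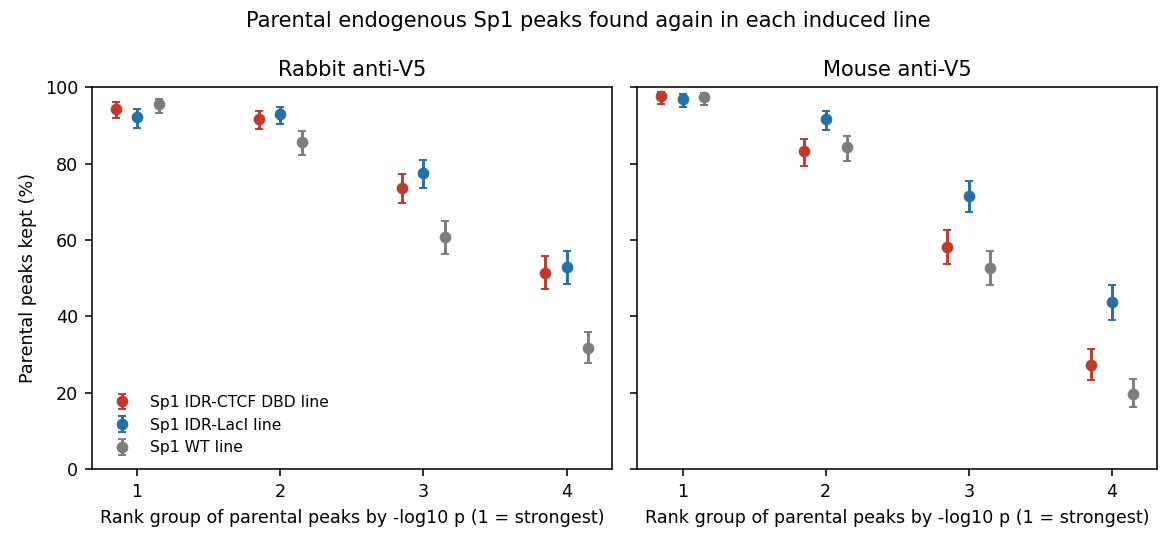
Share of parental anti-V5 peaks (y axis, %) found again in each induced line by rank group of parental strength (x axis, 1 is the strongest of 4 equal groups), rabbit antibody left and mouse antibody right. Points are shares and bars are 95% Wilson intervals; in the chimera line (red) the share fell from 94.4% to 51.5% with the rabbit and from 97.6% to 27.3% with the mouse antibody.

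Fewer regions differed with both antibodies than with either one, which follows from requiring both. Of the 1500 regions in both parental lists, 1012 were in both lists of the chimera line (67.5%), 298 were missing with the mouse antibody alone, 72 with the rabbit antibody alone, and 118 with both (7.87%, 6.61 to 9.34). Of the 1222 regions in both lists of the chimera line, 61 were in neither parental list (4.99%, 3.91 to 6.36). The largest group outside the kept regions was the 381 regions in the chimera line's rabbit list alone. For the Sp1 IDR-LacI line, with the same parental lists, 5.41% were lost and 5.88% were new with both antibodies, and for the Sp1 WT line 14.4% and 4.44%. The number lost with both antibodies was 67 with lists of equal length and 72 at an irreproducible discovery rate of at most 0.01.

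**Figure D2:**
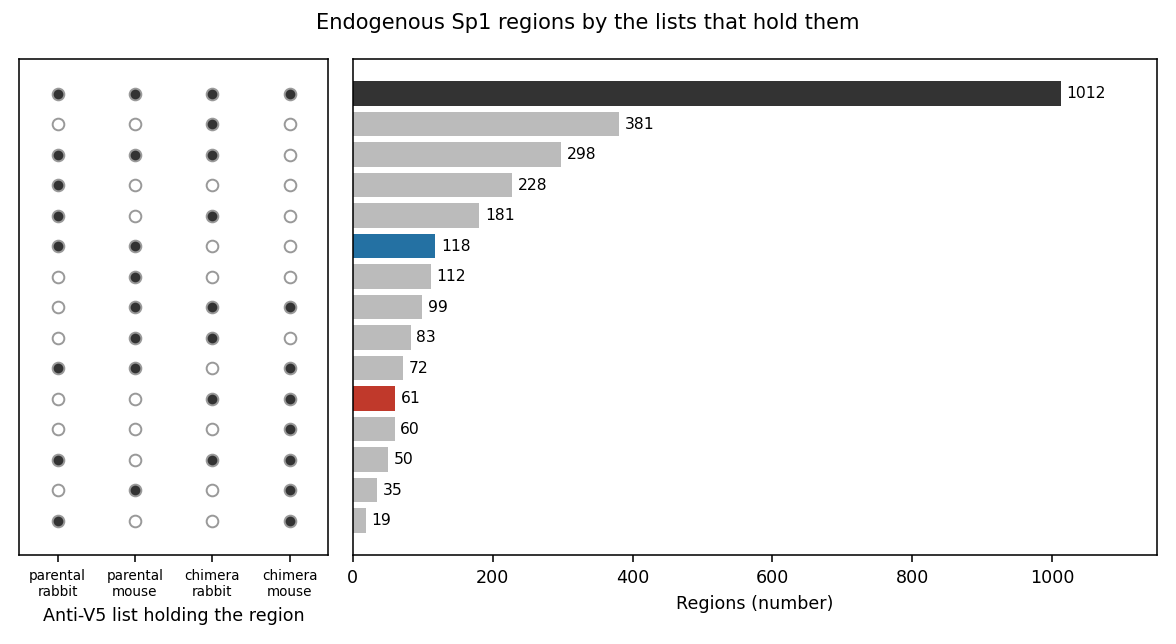
Number of regions (x axis) for each combination of the 4 anti-V5 lists that hold them (filled circles, left). The black bar is the 1012 regions in all 4 lists, the blue bar the 118 lost with both antibodies and the red bar the 61 new with both.

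Regions lost with both antibodies had been of middle to low rank. Their median percentile was 26.7 in the parental rabbit list and 23.6 in the parental mouse list, where 100 is the strongest peak, against 70.5 and 69.2 for the regions in all 4 lists. None of the 118 was in the strongest rank group of the parental rabbit list and 1 was in that of the mouse list. An irreproducible discovery rate of at most 0.01 was reached by 15.3% of them with the rabbit and 25.4% with the mouse antibody, against 85.2% and 90.3% of the kept regions. Regions new with both antibodies had median percentiles of 41.5 and 21.9 in the chimera line's lists, and 4 and 3 of the 61 were in the strongest rank groups.

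Promoters made up most of every class, and least of the new one. A transcription start of a GENCODE 44 gene lay within 1000 bp of the summit of 89.8% of the lost regions, in 94 of 118 that of a protein-coding gene. It did so in 68.9% of the new regions, 37 of 61 with a protein-coding gene, while 19 of the 61 were distal (31.1%, 20.9 to 43.6). Distal regions made up 9.78% of the kept and 10.2% of the lost regions. They were 11.1% of the 1222 regions in both lists of the chimera line and 13.9% of all 2809. The GC box stood within 100 bp of the summit, on either strand, in 85.9% of kept, 79.7% of lost and 70.5% of new regions, and in 78.0% of all 2809 regions. TGANTCA was found in 20 of 1012 kept (1.98%, 1.28 to 3.03), 9 of 118 lost (7.63%, 4.06 to 13.9) and 0 of 61 new regions, against 3.92% of all. The palindromic motif of NRF1, an activator of respiratory genes, was in 7 of 1012 kept (0.692%), 4 of 118 lost (3.39%, 1.33 to 8.39) and 0 of 61 new regions, against 0.854% of all. ATTGG, the CCAAT box, was in 44.2% of kept, 43.2% of lost and 39.3% of new regions, against 42.0% of all. CCGGAAG, a word bound by ETS factors, was in 9.98% of kept, 9.32% of lost and 4.92% of new regions, against 9.08% of all. Each word was searched on both strands, and a word is not by itself a bound site. The CTCF core motif was found in 5 of the 2809 regions, of which 0 were lost or new with both antibodies. Repeated sequence, meaning that at least 50% of the 31-base words around the summit recur in the genome, was present in 4.84% of kept, 6.78% of lost and 11 of 61 new regions (10.4 to 29.5%), against 8.54% of all. Reads in repeated sequence cannot be placed with certainty. The FLAG peaks of the full-length Sp1 transgene, an independent map of Sp1, covered 83.4% of kept, 82.2% of lost and 78.7% of new regions, against 77.9% of all.

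Ranks within the lists were alike in both lines. Over the 1012 regions in all 4 lists, the Spearman correlation of parental and chimera line percentiles was 0.80 (rabbit) and 0.83 (mouse). The top regions were picked by rank in both lines, so their high rank in the chimera line follows from that choice. The 5 regions with the highest mean percentile in all 4 lists lay at PLAUR, the urokinase receptor gene, MYO1F, an unconventional myosin gene, SLC27A1, a fatty acid transporter gene, ENSG00000267314 and BRD3OS. At PLAUR (chr19:43668137-43669350) the replicate −log10 p-values were 158, 171, 179 and 288 in the parental line and 110, 121, 121 and 148 in the chimera line, rabbit values first, and the percentile was 98.6 or more in each list. Before scaling, all parental values at PLAUR, SLC27A1 and ENSG00000267314 lay above all values of the chimera line. The unscaled values fell in general, with a median change of −0.54 on the log2 scale over the 1012 regions. How many of the 1012 had no overlap before scaling was not counted. Values of different lists can be compared only after scaling, since they grow with depth.

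SP1's own promoter was among the kept regions. The region (chr12:53379233-53381119) lay 196 bp from the SP1 start by its summit and had percentiles of 93.6 and 89.8 in the parental lists and 95.7 and 91.6 in the chimera line. The promoter of CTCF, whose DBD the transgene shares, was kept as well, at 53.1 and 76.4 in the parental and 56.1 and 70.1 in the chimera line. There was no region at PPP1R12C, the gene that hosts the AAVS1 site. Of the 27 SP and KLF genes, which encode factors that read GC-rich boxes, 9 had a region in at least 1 of the 4 lists. SP1, SP2, KLF13 and KLF16 were in all 4. SP4 was missing from the parental rabbit list alone, KLF7 was in the parental mouse and chimera rabbit lists, and KLF5 was in the parental mouse list alone. KLF10 and KLF11, repressors induced by transforming growth factor beta, were new with both antibodies. At KLF11 the replicate −log10 p-values of the chimera line were 21.6 and 23 with the rabbit and 22.7 and 24 with the mouse antibody. At KLF10 they were 22.5 and 28.9 (rabbit) and 12.5 and 25.3 (mouse). The region at KLF11 was in both Sp1 IDR-LacI lists too, and that at KLF10 in 1 of them. Both regions were also in the Sp1 WT mouse list, at percentiles of 7.36 (KLF11) and 26.0 (KLF10), and not in the Sp1 WT rabbit list.

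Of the 10 highest ranked lost regions 8 lay at a transcription start. RNFT2, a RING finger gene, headed the protein-coding starts with replicate −log10 p-values of 34.9 and 27.5 (rabbit) and 32.2 and 63.8 (mouse) in the parental line and no peak in the chimera line. Its percentiles were 64.7 and 62.8, and in the 4 lists of the other 2 induced lines it was present at 7.46 to 28.5. At BRWD3, a bromodomain gene (chrX:80809701-80810151), the parental values were 26.8, 32.7, 25.7 and 41.0. At CDC23, a subunit of the anaphase-promoting complex, they were 20.9, 31.5, 34.4 and 35.8. MCCC1, a leucine breakdown enzyme of mitochondria (chr3:183099480-183099805), had 24.2, 27.9, 24.9 and 42.3. These are mid-list values, and in each of the 4 genes the weakest was above 20. The remaining regions of the 10 highest were at EMC9, a subunit of the endoplasmic reticulum membrane complex, MSANTD4, the introns of TBPL2 (7680 bp from its start) and LTBP4 (2349 bp), and the noncoding genes ENSG00000291054 and ENSG00000284699. ENSG00000291054 had the highest mean percentile, from 64.8 (rabbit) and 81.6 (mouse), and was present in 3 of the 4 lists of the other induced lines.

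Some genes of the sterol, respiratory and translation lists were at lost regions. Of 1610 protein-coding genes with a start at a region in both parental lists, 110 were at regions lost with both antibodies (6.83%). Against that share, the sterol synthesis list had 2 of 3 (SREBF2, the sterol-sensing activator, and HMGCS1, an early enzyme of the mevalonate pathway). SREBF2 had parental values of 22.6, 22.8, 18.7 and 43.2, and HMGCS1 had 21.5, 25.9, 15.4 and 30.7. Mitochondrial ribosomal proteins had 2 of 10, MRPL49 and MRPS12. Cytosolic ribosomal proteins had 2 of 5, RPS16 and FAU. Aminoacyl-tRNA synthetases had 2 of 5, FARSB and SARS2. Nuclear oxidative phosphorylation genes had 2 of 8, COX6B1 and NDUFA6. The regions are fewer than the genes, since MRPL49 and FAU share 1 region and MRPS12 and SARS2 another. ZNF genes had 3 of 39 (ZNF471, ZNF616 and ZNF837). The proteasome (5 genes at regions in both parental lists), splicing (11), DNA replication (9), Mediator, TFIID and Pol II (3), replication-dependent histone (2), SP and KLF (4) and CTCF and cohesin (1) lists had 0. Counts of this size say nothing about a list as a whole.

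The new regions included some of high rank. ATP8B3, a phospholipid flippase gene, ranked highest outside repeated sequence, with chimera line values of 58.4 and 53.6 (rabbit) and 55.9 and 90.5 (mouse) and percentiles of 91.3 and 86.6. It was absent from both parental lists and was at 87.4 to 91.9 in 3 lists of the other induced lines. SPATA2L (chr16:89700847-89702390) had 39.0, 33.3, 56.6 and 63.5. A GC-box-rich stretch in an intron of RYR1, the calcium release channel of muscle, had 28.0, 38.3, 37.4 and 42.4, at 10996 bp from the RYR1 start. It was in all 4 lists of the other induced lines, at percentiles of 62.2 to 83.7. The other regions of the 10 highest were at MIRLET7A1HG, a microRNA host gene, ZBTB7B, a lymphoid zinc finger repressor, BICDL1, a dynein adaptor, ING5, a subunit of histone acetyltransferases, DCUN1D4, a neddylation factor, MYADM, and 15128 bp from ADRA2C, an adrenergic receptor. Of the 61 new regions, 57 (93.4%) were in at least 1 of the 4 lists of the other induced lines, against 99.4% of all 1222 regions in both lists of the chimera line and 82.2% of all 2809. In all 4 of those lists were 13 (21.3%), against 69.6% and 33.9%. All comparisons share the parental lists, so a region that those lists missed is new in every line that has it. Of the 118 lost regions 83 (70.3%) were in at least 1 of the same 4 lists, against 96.4% of the 1500 regions in both parental lists.

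Of 1280 protein-coding genes at regions in both lists of the chimera line, 33 were at new regions (2.58%). From the gene lists these were KLF10 and KLF11 (2 of 7), ZNF414 (1 of 29), POLR2G, a Pol II subunit (1 of 4), ATP5F1E, an ATP synthase subunit (1 of 5), and STAG1, a cohesin subunit (1 of 2). ZNF414 had values of 27.3, 33.3, 17.7 and 31.6. STAG1 had values from 11.4 to 18.6 and ranked at 20.7 and 6.51. FAM86C2P, a pseudogene in repeated sequence, had the highest percentiles of all new regions, 99.4 with both antibodies, and 99.2 and 99.3 in the Sp1 IDR-LacI line. In the Sp1 WT line it was at 7.99 in the rabbit list and absent from the mouse list.

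**Figure D3:**
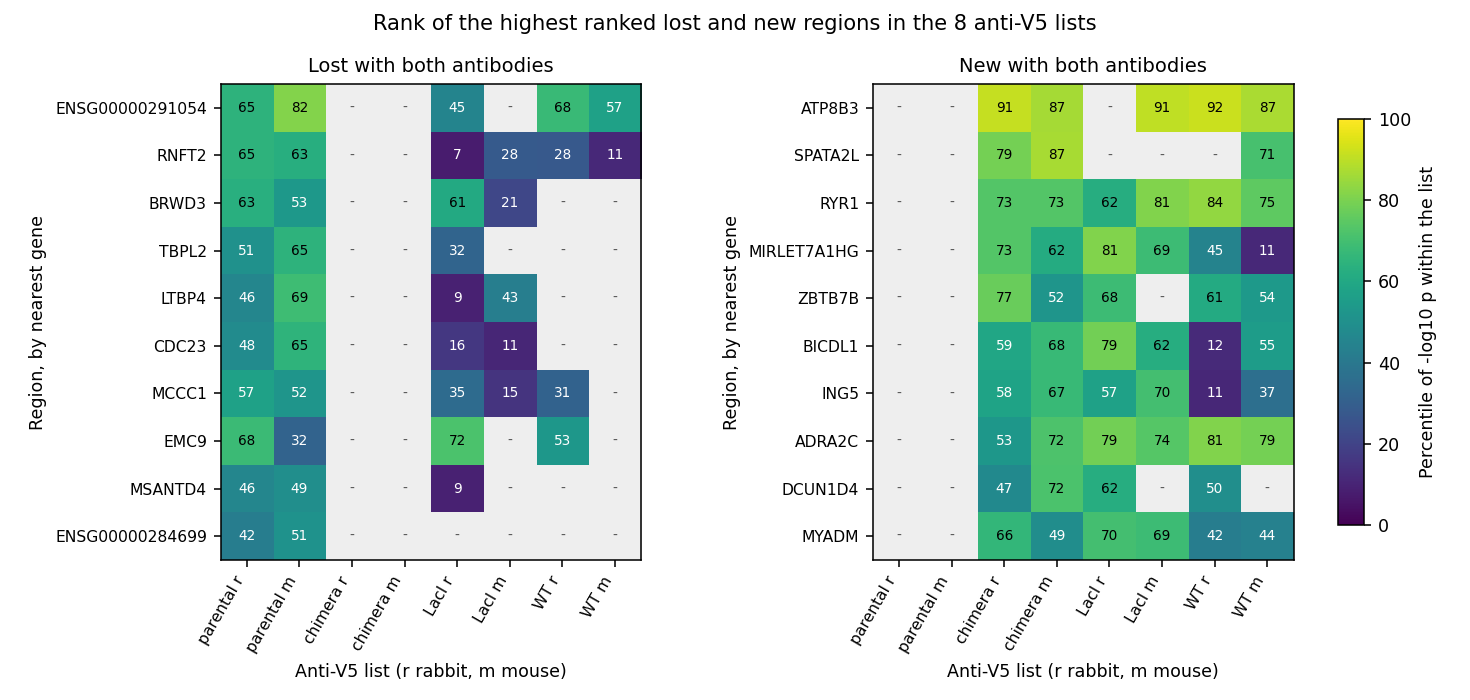
Percentile of −log10 p within each of the 8 anti-V5 lists (columns, 100 is the strongest peak, a dash and grey mean no peak) for the 10 highest ranked regions lost (left) and new (right) with both antibodies, outside repeated sequence. New regions such as RYR1, at 73.1 and 73.2 in the chimera line, were filled in most lists of the Sp1 IDR-LacI and Sp1 WT lines.

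Few regions separated the chimera line from all other anti-V5 lists. Of the 1222 regions in both of its lists, 7 were in no list of the other 2 induced lines. Of these, 4 were in no parental list either, near EMP3, KBTBD2, FPGS and PHF21B, with percentiles between 5.02 and 28.9. The same counts were not made for the other lines. The replicate −log10 p-values of these 4 ran from 11.1 at PHF21B to 18.2 at FPGS, a folate enzyme gene. In the opposite direction, 850 regions were in all 6 other lists, and 5 of them were in neither of the chimera line. They lay at RNFT2, RAB5C, an endosomal GTPase, ZNF616, GPBP1L1 and FSIP1. RAB5C had parental values of 17.5, 43.6, 20.6 and 43.2, and percentiles of 3.98 to 32.9 in the other induced lines. Of the 1500 regions in both parental lists, 54 were in no list of the other 2 induced lines. Of these, 35 were in neither list of the chimera line either.

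Endogenous Sp1 was compared at the places where the chimera itself was mapped. The anti-FLAG list of the chimera held 166 peaks. Its replicate −log10 p-values had a Spearman correlation of 0.15, against 0.83 to 0.88 in the 4 V5 lists. An irreproducible discovery rate of at most 0.01 was reached by 19 of the 166, and 27.1% were in repeated sequence. For the CTCF DBD list the correlation was 0.34. These maps of FLAG sites are thus weak, which limits what follows. Of the 166 peaks, 29 (17.5%, 12.4 to 24.0) overlapped a parental rabbit V5 peak and 39 (23.5%, 17.7 to 30.5) a rabbit V5 peak of the chimera line. With the mouse antibody they were 31 (18.7%) and 32 (19.3%). The Sp1 IDR-LacI lists gave 34 and 36, and the Sp1 WT lists 34 and 29. Outside repeated sequence 121 FLAG peaks remained, with 27 and 31 (rabbit) and 29 and 22 (mouse) in the parental and chimera lines. Of the 649 FLAG peaks of the CTCF DBD alone, 68 and 77 (rabbit) and 61 and 50 (mouse) overlapped a V5 peak of the parental and the chimera line. All intervals of the chimera line overlapped the parental ones. Both shares are over the same FLAG peaks, so this overlap is no test of a difference. The V5 lists also differ in length, with 1987 and 2172 peaks (rabbit) and 1830 and 1413 (mouse) in the parental and chimera lines.

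Of the 61 regions new with both antibodies, 5 lay over a FLAG peak of the chimera or of the CTCF DBD (8.20%, 3.55 to 17.8), as did 4 of the 118 lost regions (3.39%) and 128 of all 2809 (4.56%). The new ones were at MIRLET7A1HG and PTDSS2, a phosphatidylserine synthase gene, and at 3 places in repeated sequence, in a ribosomal RNA gene, 297711 bp from the pseudogene KSR1P1 and on an unlocalized scaffold of chromosome 1. The last 2 also lay under peaks of a control FLAG list. The share was 3.28% with FLAG peaks at an irreproducible discovery rate of at most 0.05. MIRLET7A1HG had chimera line values of 28.1, 30.3, 38.0 and 28.6, and was in all 4 lists of the other induced lines. The lost ones were at EMC9, SARS2, NDUFA6 and G3BP2.

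The strength of peaks was tested where replicate values existed in all 4 lists, at 1012 regions. Each replicate −log10 p was divided by the median of its column over these regions, called relative strength here. Strength on the log2 scale was fitted with limma with antibody as a term. The 4 values of a line came from 2 replicates with 2 antibodies. After Benjamini-Hochberg adjustment over the 1012 regions at a threshold of 0.05, 14 regions were stronger (1.38%) and 1 was weaker (0.0988%) in the chimera line, and 153 had an unadjusted p under 0.05. When both antibodies at the same position in their lists were treated as 1 culture, with an estimated correlation, 7 stronger and 0 weaker regions remained. A test of whether the change differed between the 2 antibodies, the limma interaction term, called 0 regions, with 21 at an unadjusted p under 0.05. Its median SE of 0.41 on the log2 scale, against 0.20 for the change itself, leaves all but large differences between the antibodies out of reach. Without the scaling 0 regions passed, and the median change was −0.54 on the log2 scale. All changes are therefore relative to the median region.

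At PTPRU, a receptor tyrosine phosphatase gene (chr1:29282940-29283697, summit 397 bp from its start), the 4 relative strengths in the parental line were 0.495 and 0.537 (rabbit) and 0.542 and 0.541 (mouse), and those in the chimera line 1.07 and 1.23, and 2.03 and 1.21. The lines did not overlap, and the difference was 1.34 ± 0.20 (SE) on the log2 scale with an adjusted p of 0.00078 in limma. PCBP3, a poly(C)-binding protein gene (chr21:45642958-45643567), rose from 0.679, 0.504, 0.802 and 0.609 to 2.42, 1.14, 2.16 and 1.44, a log2 difference of 1.42 ± 0.23. DNAH9, an axonemal dynein gene (chr17:11598161-11599179), rose from 0.363, 0.507, 0.438 and 0.510 to 0.964, 0.769, 1.30 and 0.773, by 1.04 ± 0.20. The fourth stronger promoter, CPAMD8, was named after its values were seen (0.86 ± 0.18). At CHEK2, the checkpoint kinase of the DNA damage response, relative strength fell from 1.48, 1.00, 1.61 and 0.921 to 0.590, 0.784, 0.711 and 0.563, a difference of −0.89 ± 0.21 with an adjusted p of 0.028 in limma. Its lines did not overlap either, and the raw −log10 p-values were 47.7, 51.2, 61.3 and 72.8 against 17.3, 28.8, 18.9 and 21.0. The call at CHEK2 was lost without the first parental rabbit or first parental mouse value, the first rabbit value of the chimera line or either of its mouse values. Over the 17 alternatives that kept the scaling its adjusted p in limma ran from 0.0032 to 0.31. The number of stronger regions fell to 6 without the first mouse value of the chimera line and rose to 21 without the second parental rabbit value.

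**Figure D4:**
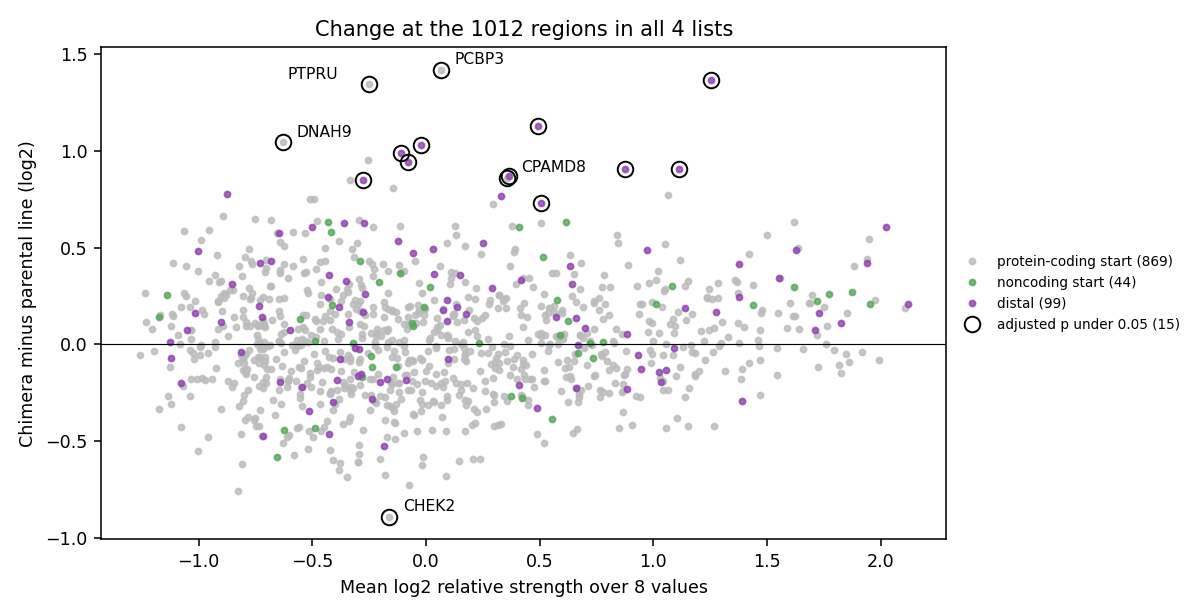
Change at the 1012 regions in all 4 lists, chimera minus parental line (y axis, log2), against the mean log2 relative strength (x axis), coloured by the nearest transcription start. Circles mark the 15 regions past the threshold, of which 14 lie above 0 and CHEK2 lies below.

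The remaining 10 stronger regions were distal. MIR4274 (79851 bp from its start, 1.03 ± 0.19) and ENSG00000256948 (8256 bp, 0.94 ± 0.23) completed the 5 largest changes outside repeated sequence, and 6 of the 14 were in repeated sequence. Among all 1012 regions 9.78% were distal and 4.84% repeated. A chromosome end was within 5 Mb of 9 of the 14 and of 194 of the 1012. The median change was 0.42 at the 37 distal regions within 5 Mb of an end, 0.10 at the 60 other placed distal regions and 0.00 at protein-coding starts, against 0.02 over all. The 5 Mb limit was not part of the planned comparisons, and 8 of the 14 are among these 37 regions. None of the 14 lay over a FLAG peak of the chimera or of the CTCF DBD. Of the 1012, 40 did (3.95%), so 0 of 14 is near the share over all. At the 20 kept regions over a chimera FLAG peak the median change was −0.05 (−0.39 to 0.64) with 0 past the threshold, and at the 32 over a CTCF DBD FLAG peak it was 0.00, with 0. Both FLAG lists agreed poorly between replicates, which limits what these values show. At CTCF the change was −0.16 ± 0.21, at SP1 0.16 ± 0.18, at SP2 −0.27 ± 0.19, at KLF13 0.47 ± 0.20 and at KLF16 0.25 ± 0.22, none past the threshold.

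The changed regions were set beside the other induced lines. A limma fit over the 773 regions in all 8 anti-V5 lists gave a change at PTPRU of 1.31 ± 0.19 in the chimera line, 1.38 in the Sp1 IDR-LacI line and 1.70 in the Sp1 WT line, each against the parental line. At CHEK2 the values were −0.92 ± 0.19, −0.88 and −0.80, and at PCBP3 1.39, 1.36 and 1.51. At DNAH9 they were 1.01, 0.52 and 0.74. These 3 comparisons share the parental lists, so a parental value that is off moves all 3. In the same fit 19 regions were stronger (2.46%) and 8 weaker (1.03%) in the chimera line. Against the same parental lists the counts were 23 (2.98%) and 5 (0.647%) in the Sp1 IDR-LacI line and 33 (4.27%) and 9 (1.16%) in the Sp1 WT line. The differences in the direct comparisons do not use parental values. Their SE does, since it comes from the same fit, and each of the 773 regions had to be in both parental lists. Chimera against Sp1 IDR-LacI line gave 0 regions past the threshold in limma (10 at an unadjusted p under 0.05), and chimera against Sp1 WT line 0 as well (32 at an unadjusted p under 0.05). At PTPRU the chimera line differed by −0.07 ± 0.19 from the Sp1 IDR-LacI line and at CHEK2 by −0.04 ± 0.19. At DNAH9 the difference was 0.49 ± 0.21, not past the threshold. Data were also simulated for the fit of 1012 regions, with independent noise and far more changed regions than were called here. In them 99.5% of regions changed by 1 on the log2 scale were called and 33% of those changed by 0.5. More changed regions loosen the adjustment, so these shares may be too high for the real data. They were not obtained for the fit of 773 regions, and small changes could go unseen.

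**Figure D5:**
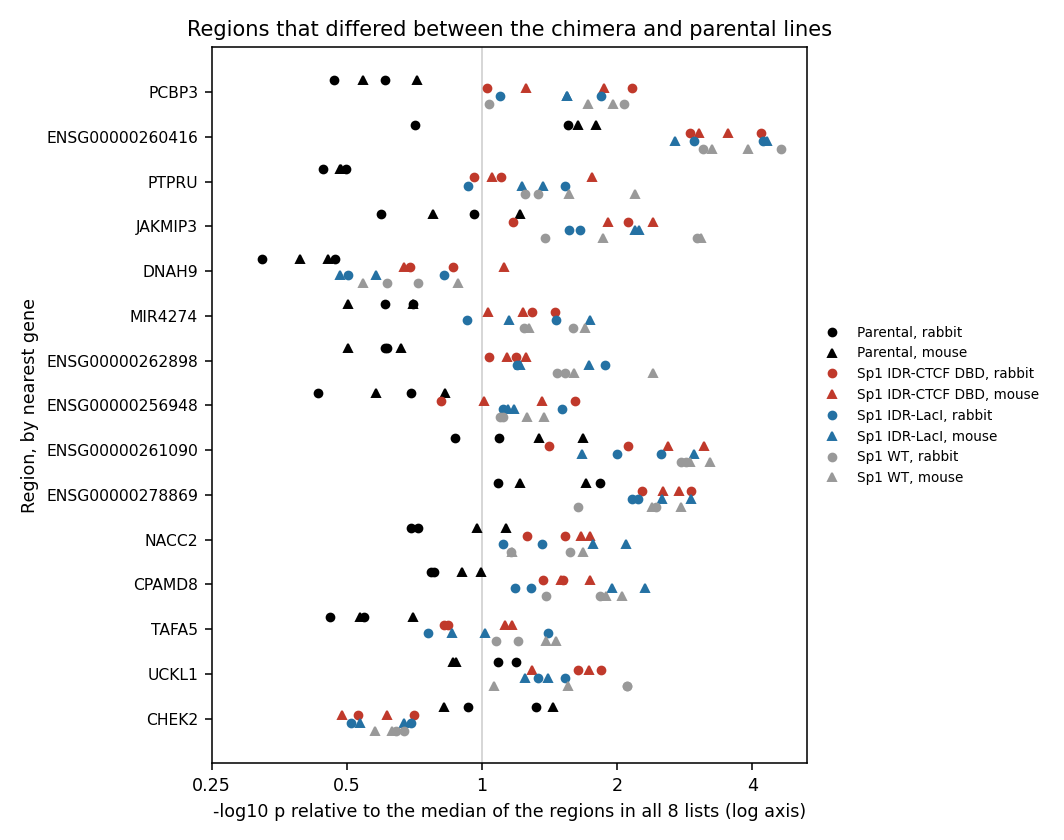
Relative strength (x axis, log scale, −log10 p over the column median of the 773 regions in all 8 lists) of each replicate at the 15 regions that differed, circles for the rabbit and triangles for the mouse antibody. At PTPRU the parental values (black) lie between 0.443 and 0.498 and those of the chimera line (red) between 0.960 and 1.75, and the Sp1 IDR-LacI (blue) and Sp1 WT (grey) values lie beside the red ones.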

How the data were processed

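Per the submitters' processing notes, Cutadapt 2.6, Bowtie2 2.3.5.1 (hg38), SAMtools 1.9 and MACS3 2.2.7.1 served for trimming, alignment and peak calling. Peaks were called per replicate at a p-value of 1e-3 and joined over the 2 replicates by their irreproducible discovery rate. The authors deposited 1 list per line and antibody, at a rate of at most 0.1. The −log10 p-values used here are those deposited for the merged peak, which ranked peaks, and for each replicate. The stricter limits used the deposited score, the −log10 of the global irreproducible discovery rate. Which labelled replicate comes first in a list is not known here. Read numbers were not analysed here, so the depth behind a list is unknown. The authors' differential tables hold their own comparison and were not used.

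Peaks sharing at least 1 bp were joined into regions. Overlap counts were checked against bedtools 2.31.1 in 6 comparisons, with 0 different. Shares have 95% Wilson intervals (statsmodels 0.14.6), which cover counting error only. Strength was tested with limma 3.58.1 (R 4.3.3) on log2 of replicate −log10 p, centred on each column's median, with antibody as a term. Spread is between these samples, and whether both antibodies were used on the same cultures is not stated. The fit was tested on simulated data. Transcription starts were those of GENCODE 44, within 1000 bp. Sequences come from hg38. Regions are named by the nearest protein-coding start within 1000 bp, otherwise by the nearest gene.

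Outside repeated sequence the text names the 10 highest ranked lost and the 10 highest ranked new regions, the 5 top kept regions, the 5 largest changes per direction, members of the fixed gene lists at lost or new regions, the SP and KLF genes, CTCF and the AAVS1 gene, new regions over a FLAG peak, and up to 5 regions that separate the chimera line from all other lists. Members and lists were chosen with earlier results of these data known.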

Additional observations from a re-analysis of the deposited data

How the results depend on the processing

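With lists of equal length the kept shares moved to 75.2% (rabbit) and 78.4% (mouse), and the regions lost with both antibodies from 118 to 67. At an irreproducible discovery rate of at most 0.01 they were 72, and 69.9% of parental mouse peaks were kept. The lost regions at a transcription start were 96.6% within 5000 bp and 79.7% with protein-coding genes alone. The new regions over a FLAG peak were 3.28% at a rate of at most 0.05. The numbers of kept and of new regions stayed within 1.5 times under every alternative tried. Stronger and weaker regions were 5 and 0 with normal scores, 0 and 0 without centring, 12 and 3 with quantile normalization, 19 and 8 with all 8 lists, 3 and 0 with the rabbit and 6 and 0 with the mouse antibody alone, and 7 and 1 without repeated sequence. Leaving out 1 replicate value gave 6 to 21 stronger and 0 to 3 weaker regions, the fewest stronger ones without the first chimera line mouse value and the most without the second parental rabbit value. No direction turned among the 15 changed regions. PTPRU and PCBP3 were each called in 16 of 17 centred alternatives, CHEK2 in 8 and UCKL1 in 5. The depth of the lists is unknown and limits what could be seen.

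The labels number replicates alike in both lines, but the value columns carry no number. A replicate block by column order, chosen after seeing the data, gave 19 stronger and 3 weaker regions. Deviations at the same column position correlated at 0.50 between the antibodies in the parental line, 0.26 in the chimera line, and 0.13 to 0.17 across lines. Treating both antibodies of a position as 1 culture, also chosen after seeing the data, gave 7 and 0.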
